A study of Mus musculus with 8 samples.

Results

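Genes of the cerebellar granule cell were examined in whole cerebellum of 4 wild-type and 4 Capicua mutant mice at 28 days of age, with RNA of each animal on its own Affymetrix Mouse Gene 1.0 ST array. The mutants carry the genotype label Cic-L-null, and both groups share a mixed Swiss Webster (CD-1) background. The labels give neither the sex of the animals nor the design of the allele, and whole tissue mixes granule cells with every other cell type of the cerebellum. The granule cell set held 32 named genes, of which 30 were measured among 20352 genes in all. A gene entered through the probe sets annotated with its symbol alone or with an older synonym, and its value was the mean log2 value of those probe sets. Expression of Rbfox3 and Ntf3 was not analysed here. The set was split by known role into 7 genes of precursors and migration, 11 transcription factors of the lineage, and 14 genes of mature granule cells, of which 12 were measured.

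Granule cells are the small glutamatergic neurons that fill the inner layer of the cerebellar cortex and make up most of its cells. Their precursors divide in the external granular layer under the influence of Sonic hedgehog, leave the cycle, and migrate inward along Bergmann glia past the Purkinje cells. In mice this layer has largely emptied by weaning age, so genes of cell division are known to be low in the cerebellum by then, whereas genes of synapses and calcium signalling persist. Capicua is a transcriptional repressor that binds ataxin-1, the protein altered in spinocerebellar ataxia type 1.

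The altered gene Cic checked the labels: its highest mutant value, 7.62, lay under its lowest wild-type value, 8.57, and limma put the difference at -1.25 (SE 0.12, adjusted p = 0.00818). Here and below a difference is the mutant mean minus the wild-type mean on the log2 scale, and p-values were adjusted by Benjamini-Hochberg over all genes. Gene values correlated between 0.9913 and 0.9954 across pairs of arrays. The Y-linked genes Uty, Kdm5d and Eif2s3y were high and Xist was low in 5 animals, namely replicates 1 and 4 of the wild-type group and replicates 1, 2 and 4 of the mutants, and the other 3 arrays had the reverse. The label of wild-type replicate 1 names another RNA extraction than those of the other 7 arrays, and this array held the highest wild-type value in 14 of the 30 granule cell genes. The share over all genes was not counted. Markers of Purkinje cells, interneurons, Bergmann glia and astrocytes, oligodendrocytes and microglia also had their highest wild-type median in this array. Those of endothelial cells and of unipolar brush and nuclear neurons did not. The number of arrays limits the precision.

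None of the 30 granule cell genes passed the threshold (limma, adjusted p under 0.05), against 0.138% of all genes, 28 of 20352, of which 0.0884% were higher and 0.0491% lower in the mutants. At an unadjusted p under 0.05 there were 4, namely Dcx, Il16 and Nfib with higher and Camk4 with lower means in the mutants, against 9.26% of all genes, 4.56% higher and 4.7% lower. Of the 30 differences, 20 were above 0, where 47% of all genes were. Their median was 0.052 (range -0.21 to 0.52), beside -0.0071 over all genes, and 28 of the 30 lay within 0.2 of 0. Groups did not overlap for 5 members (Dcx, Nfix, Slc17a7 and Il16 above, Camk4 below), where 5.94% of all genes had groups without overlap. Without wild-type replicate 1 the number without overlap was 8, where 13.6% of all genes had groups of 3 and 4 without overlap.

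**Figure D1:**
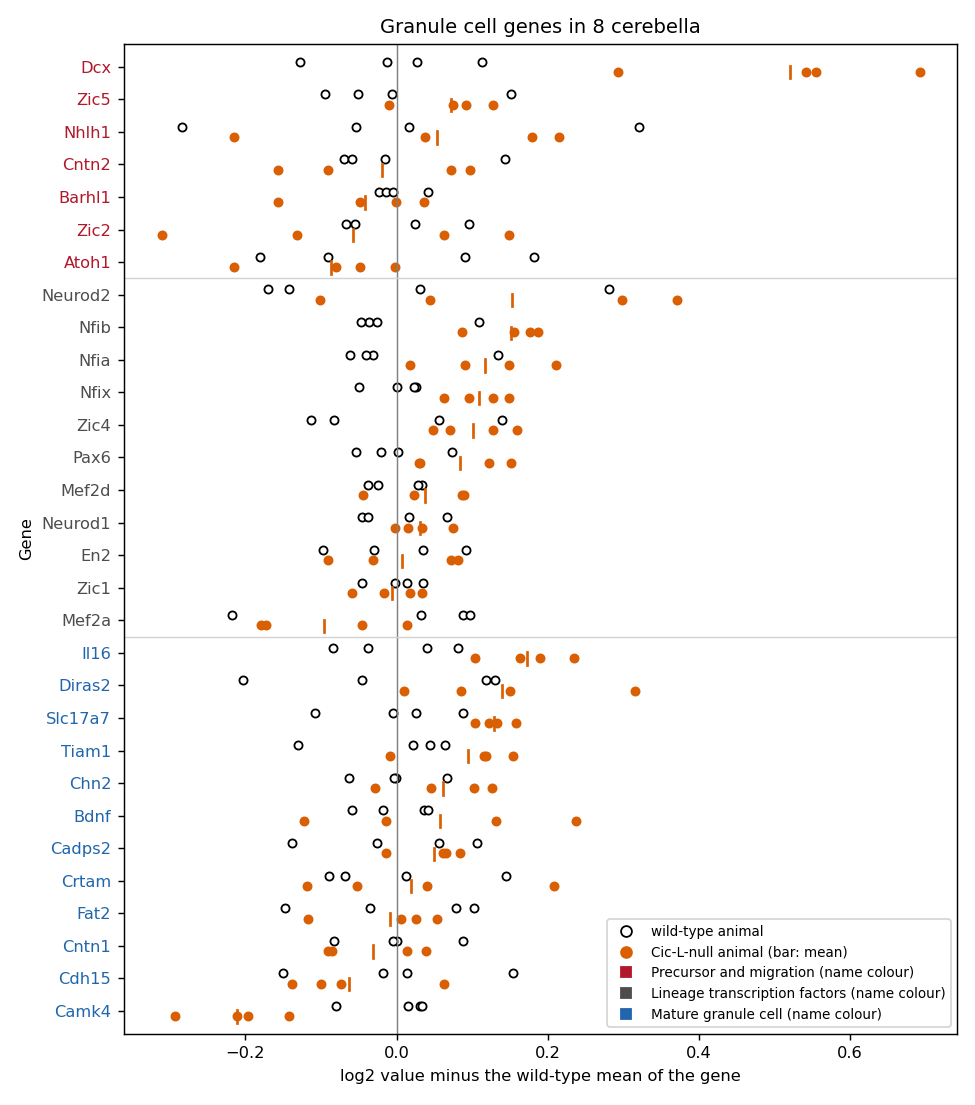
Each animal's log2 value of the 30 measured granule cell genes, as the deviation from the wild-type mean of that gene, with open circles for 4 wild-type and filled circles for 4 Cic-L-null animals and a bar at the mutant mean. The bar of Dcx stands farthest to the right, at 0.52, and that of Camk4 farthest to the left, at -0.21. For most other genes the circles of both groups interleave.

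Among the precursor and migration genes, 6 of 7 had differences within 0.2 of 0 and 1, Dcx, did not. Atoh1, the bHLH factor that defines granule cell precursors, had log2 values of 5.59, 5.68, 5.95 and 5.86 in wild-type and 5.56, 5.72, 5.77 and 5.69 in Cic-L-null replicates 1 to 4. Nhlh1, a bHLH factor of neurons that have just left the cycle, lay between 5.42 and 6.02 over the 8 arrays. Neither gene value reached 6.21 on any array. Below this limit lay 95% of 985 olfactory receptor genes, and it marks genes that are dim. The value of Nhlh1 was a mean over 2 unlike probe sets. Probe set 10360204 lay above the limit on all 8 arrays and probe set 10360203 below it. Nhlh1 was thus dim as a gene mean, but not in both probe sets. The groups overlapped for both genes. Differences were -0.087 (SE 0.087) for Atoh1, which rested on 1 probe set, and 0.054 (SE 0.13) for Nhlh1.

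The other 5 genes of this kind were above the dim limit on all 8 arrays. Barhl1, a homeobox factor downstream of Atoh1, lay between 8.25 and 8.31 in wild-type and between 8.11 and 8.31 in Cic-L-null, and its difference was -0.042 (SE 0.060, 95% interval -0.17 to 0.089). Zic2 and Zic5, zinc finger genes that neighbour each other on chromosome 14 and are known from precursors, differed by -0.058 (SE 0.096) and 0.072 (SE 0.068). The lowest Zic2 value, 10.01 in Cic-L-null replicate 3, lay below all others, and the highest, 10.47, was also that of a mutant. Cntn2, the adhesion protein TAG-1 of axons that granule cells extend before they migrate, differed by -0.020 (SE 0.077). Its 30 probe sets divided into 23 below and 7 above 0.

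Dcx stood apart from these genes. It encodes doublecortin, a microtubule protein of migrating and newly formed neurons, which in the mature cerebellum is also known from unipolar brush cells, excitatory interneurons of the granular layer. Its log2 values were 6.87, 6.75, 6.63 and 6.78 in wild-type and 7.45, 7.30, 7.05 and 7.31 in Cic-L-null replicates 1 to 4. All 4 mutants lay above all 4 wild-type animals, with a gap of 0.18 between the nearest values. The difference was 0.52 (SE 0.089, 95% interval 0.32 to 0.72), or 1.43-fold, with an adjusted p of 0.0644 in limma, rank 42 among all genes. An exact two-sided permutation test gave p = 0.0286, the smallest that 4 against 4 arrays allow.

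The limma call of Dcx depended on the setting. The adjusted p was 0.0371 among genes above the dim limit alone, 0.0491 with only probe sets above that limit, 0.0213 with a trended and robust variance, 0.0437 with array weights and 0.031 without Cic-L-null replicate 3, the mutant with the lowest value. Over all alternatives it lay between 0.0213 and 0.226, and the difference between 0.46 and 0.67. Dcx is on the X chromosome. Within each group the arrays with high Y-linked values also had the higher Dcx values, and with these genes as a covariate the difference was 0.47 (SE 0.069, adjusted p = 0.0567 in limma).

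Probe sets of Dcx went largely 1 way. Of 12, 11 were higher and 1 lower in the mutants, with a median of 0.44, and 4 had groups without overlap, against 4.3% of all 241576 probe sets. The largest difference, 0.98 (SE 0.19) for probe set 10607157, came from 6.73, 6.73, 6.39 and 6.14 in wild-type and 7.38, 7.92, 7.20 and 7.38 in Cic-L-null replicates 1 to 4. Probe sets 10607160, 10607166 and 10607164 followed with 0.95, 0.92 and 0.82. The exception, probe set 10607167, differed by -0.20 (SE 0.30) with values scattered from 5.77 to 6.97. No probe set of Dcx passed over all probe sets, where the smallest adjusted p was 0.319 in limma and 1 of 241576 probe sets passed (0.000414%), and the position of each probe set along the transcript was not used here.

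Unipolar brush cells share Dcx with migrating granule cells, and a joint list of unipolar brush and nuclear neuron genes was read beside it. Of 5 measured genes of unipolar brush and nuclear neurons, 4 had differences above 0 and 1 below. Eomes, the T-box factor that marks unipolar brush cells, lay between 7.89 and 8.10 in wild-type and had values of 8.13, 8.32, 8.61 and 8.85 in Cic-L-null replicates 1 to 4, with no overlap and a difference of 0.47 (SE 0.13, adjusted p = 0.266 in limma). Within the mutants, replicate 1 had the highest Dcx and the lowest Eomes, and a link between these genes was not tested. Spp1 differed by -0.41 (SE 0.10) without overlap, and Slc17a6, the vesicular glutamate transporter VGLUT2, by 0.10 (SE 0.071). Lmx1a and Otx2, further factors of this lineage chosen after their values were seen, differed by 0.10 (SE 0.083) and 0.11 (SE 0.15). The list joins genes of both kinds of neuron, and unipolar brush genes were not summed alone. Summed linear values of the 5 genes lay between 959.9 and 1072 in wild-type and between 1055.4 and 1154.8 in Cic-L-null. The part of these genes in the Dcx difference was not tested. In whole tissue, more cells of a type and more RNA per cell cannot be told apart.

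The upstream sequence of Dcx is shown because this gene had the largest difference. The RefSeq table gives 2 start sites, and the 250 bases before the distal one, on the minus strand at chrX:143933220-143933469 of GRCm38.p6, read 5′ to 3′ in lower case as follows.
Dcx: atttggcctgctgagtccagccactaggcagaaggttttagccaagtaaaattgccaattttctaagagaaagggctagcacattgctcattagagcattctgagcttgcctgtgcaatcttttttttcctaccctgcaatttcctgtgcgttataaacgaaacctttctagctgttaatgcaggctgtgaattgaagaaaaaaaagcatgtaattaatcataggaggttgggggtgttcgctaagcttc
No capitals appear because neither the Capicua octamers TGAATGAA and TGAATGGA nor the E boxes CAGCTG and CAGATG, which factors such as Atoh1 and Neurod1 can bind, occur there on either strand. Across 48 windows of 300 bases around the starts of 27 of the 32 members, Ntf3 included, a Capicua octamer occurred in 1 (2.08%), against 2.47% of 32851 windows of all genes. Zic2, En2, Nfib, Camk4 and Crtam had no window and were not searched. The E box CAGCTG occurred in 9 of the 48 (18.8%, against 16.3% of all windows) and CAGATG in 11 (22.9%, against 17.2%). The 1 member with an octamer was Barhl1, in which it begins at base 21 of the transcript counted from the proximal start, on the minus strand at chr2:28912458-28912485, with the octamer in capitals.
Barhl1: ccccgcacaaTGAATGAAactcaccgta
These matches describe letters and not bound sites, and Barhl1 itself had overlapping groups.

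Transcription factors of the granule cell lineage leaned to slightly higher values in the mutants, and none passed the threshold. Of 11, 9 had differences above 0 and 2 below, with a median of 0.084 and a range from -0.096 to 0.15. The median was 0.039 where gene values were medians over probe sets. All were above the dim limit on all 8 arrays. The per-array median deviation of the 11 from their wild-type means was 0.034, -0.032, -0.026 and -0.024 in wild-type and 0.081, 0.045, 0.072 and 0.030 in Cic-L-null replicates 1 to 4. Wild-type replicate 1 thus lay above Cic-L-null replicate 4, and the other 3 wild-type arrays below all mutants.

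The nuclear factor I genes, which drive the late program of granule cells and are also known from glia, had differences above 0 in all 3 members. Nfib had values of 10.98, 10.83, 10.84 and 10.82 in wild-type and 11.04, 10.95, 11.02 and 11.05 in Cic-L-null, a difference of 0.15 (SE 0.059, 95% interval 0.021 to 0.28, adjusted p = 0.444 in limma). Only wild-type replicate 1 reached into the range of the mutants. All 19 of the Nfib probe sets were higher in the mutants, 5 of them without overlap, where 2.39% of all probe sets had that pattern. Without wild-type replicate 1 the Nfib difference was 0.19 (SE 0.054, adjusted p = 0.211 in limma). Nfix differed by 0.11 (SE 0.053, adjusted p = 0.58), from 11.29 to 11.36 in wild-type and from 11.40 to 11.48 in Cic-L-null, so that its groups did not overlap, with a gap of 0.036. Nfia differed by 0.12 (SE 0.067), but by -0.038 where the gene value was a median over probe sets. Its probe set 10506034, which lay at 5.53 in wild-type and so below the dim limit, differed by 0.81, and the median over its 19 probe sets was 0.035.

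Groups overlapped for the other 8 lineage factors. Neurod1, the bHLH factor needed for granule cells to survive and mature, lay between 12.16 and 12.27 in wild-type and between 12.21 and 12.28 in Cic-L-null, with a difference of 0.031 (SE 0.054, 95% interval -0.090 to 0.15). Its relative Neurod2 lay between 6.92 and 7.37 in wild-type and between 6.99 and 7.46 in Cic-L-null, with a difference of 0.15 (SE 0.12) over 3 probe sets. Zic1 and Zic4, which neighbour each other on chromosome 9 and are both needed for cerebellar growth, differed by -0.0059 (SE 0.053) and 0.10 (SE 0.069). The sign of Zic1 turned under quantile normalisation, at 0.011. Pax6, a paired box factor of the granule cell lineage, differed by 0.084 (SE 0.058), with 18 of 20 probe sets higher, and En2, a homeobox factor that patterns the cerebellum, by 0.0078 (SE 0.066). The activity-dependent factors Mef2a and Mef2d differed by -0.096 (SE 0.083) and 0.038 (SE 0.056).

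**Figure D2:**
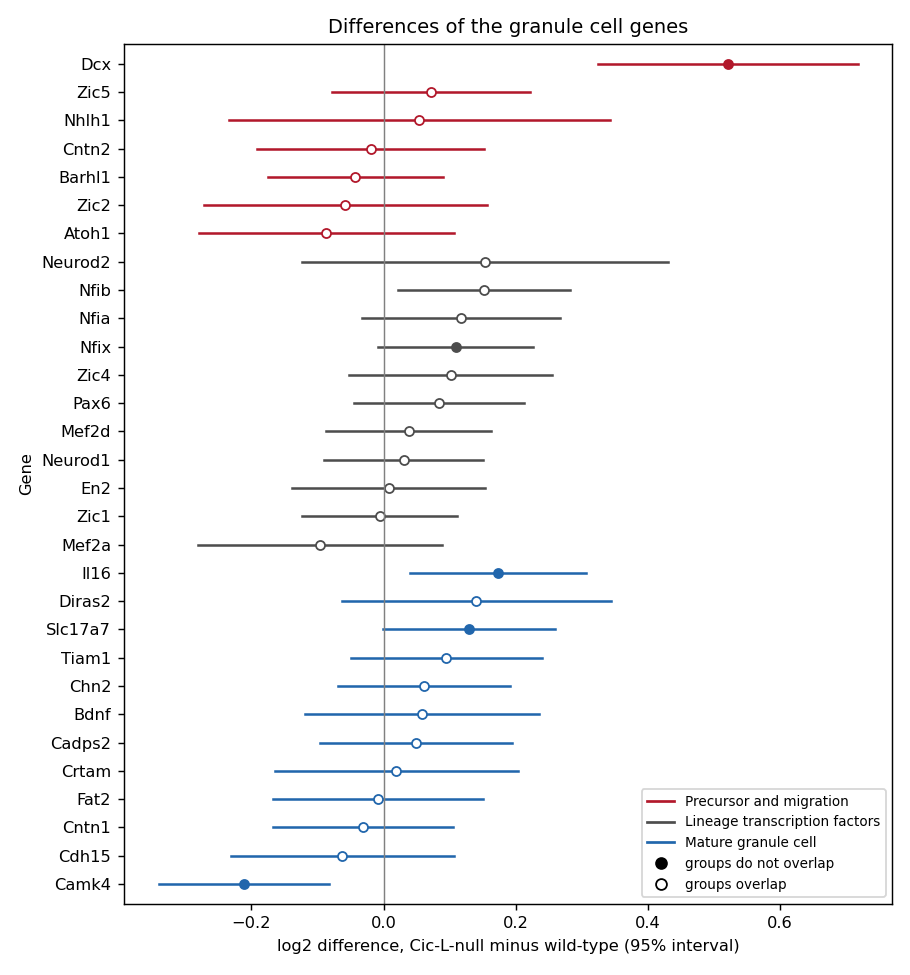
Log2 difference of each measured granule cell gene, Cic-L-null minus wild-type, with its 95% interval from limma, coloured by role and filled where the groups of 4 do not overlap. The intervals of Dcx, Nfib, Il16 and Camk4 lie on 1 side of 0, and all other intervals include 0.

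Mature granule cell genes went both ways, with 8 of 12 differences above 0, 4 below, and a median of 0.054 from -0.21 to 0.17. None passed the threshold. All 12 were above the dim limit on all 8 arrays, as were Gabra6 and Cbln3, which mark granule cells of the labelled tissue.

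Camk4, a calcium and calmodulin dependent kinase that carries synaptic calcium signals to the nucleus, was the member with the most negative difference. Its values were 11.29, 11.29, 11.27 and 11.18 in wild-type and 11.05, 10.96, 11.11 and 11.06 in Cic-L-null replicates 1 to 4. Every mutant lay below every wild-type animal, with a gap of 0.062. The difference was -0.21 (SE 0.058, 95% interval -0.34 to -0.082), with an adjusted p of 0.254 in limma, where 2.91% of all genes had mutants below without overlap. All 14 of its probe sets were lower in the mutants, from -0.50 for the dim probe set 10454643 to -0.10 for probe set 10454644. Of these, 8 had no overlap, where 1.91% of all probe sets had mutants below without overlap. Probe sets of 1 gene are not independent. Its adjusted p reached 0.0458 with a trended and robust variance and otherwise did not pass.

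Il16 encodes in neurons a long PDZ protein that binds ion channels and is known from granule cells. Its values were 10.80, 10.75, 10.68 and 10.63 in wild-type and 10.82, 10.90, 10.88 and 10.95 in Cic-L-null. The mutants lay above the wild-type animals by a gap of only 0.022, and the difference was 0.17 (SE 0.060, 95% interval 0.039 to 0.31, adjusted p = 0.376 in limma). All 22 of its probe sets were higher in the mutants, and 9 had no overlap. Il16 lies on chromosome 7, which also carries Cic, Slc17a7 and Mef2a.

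Slc17a7, the vesicular glutamate transporter VGLUT1 of parallel fibre terminals, had values of 11.65, 11.55, 11.58 and 11.45 in wild-type and 11.69, 11.68, 11.72 and 11.66 in Cic-L-null. The groups did not overlap but came within 0.016 of each other, and the mutants were the tighter group. The difference was 0.13 (SE 0.059, adjusted p = 0.543 in limma), and all 13 probe sets were higher.

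The remaining mature genes had overlapping groups. Diras2, a small GTPase gene, differed by 0.14 (SE 0.092), and Tiam1, a Rac activator that takes part in granule cell migration and synapse formation, by 0.095 (SE 0.065). Chn2, which encodes a Rac inactivating protein, differed by 0.061 (SE 0.059), and Bdnf, the neurotrophin, by 0.058 (SE 0.080). Cadps2, which promotes release of dense core vesicles from parallel fibres, differed by 0.049 (SE 0.066), and Crtam, an immunoglobulin family membrane protein gene, by 0.019 (SE 0.083). Fat2, a giant protocadherin of parallel fibres, differed by -0.0081 (SE 0.072), the adhesion gene Cntn1 by -0.031 (SE 0.061) and Cdh15, the cadherin of the granular layer glomeruli, by -0.063 (SE 0.076). Of these 9 genes, the 95% interval was widest for Diras2, from -0.064 to 0.34, and narrowest for Chn2, from -0.070 to 0.19, so that these data do not show that the genes were equal.

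The probe sets behind the members showed where a gene value leaned on few of them. Of 400 probe sets of the 30 genes, 262 were higher and 138 lower in the mutants, and groups did not overlap for 30 with the mutants above and 10 with them below, where 2.39% and 1.91% of all probe sets had these patterns. Probe sets of 1 gene share its RNA and are not independent. For 8 of 29 genes with more than 1 probe set, all lay on 1 side of 0. Crtam had the widest spread, from -0.53 to 0.68 for the dim probe set 10592511. In Cntn2 probe set 10357707 differed by 0.74 where the median over its 30 was -0.081, and in Cntn1 probe set 10426398 differed by 0.53 where the median over its 26 was -0.066. Bdnf ranged from -0.56 to 0.36, and for Zic2 3 probe sets were higher and 1 lower, at -0.54.

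**Figure D3:**
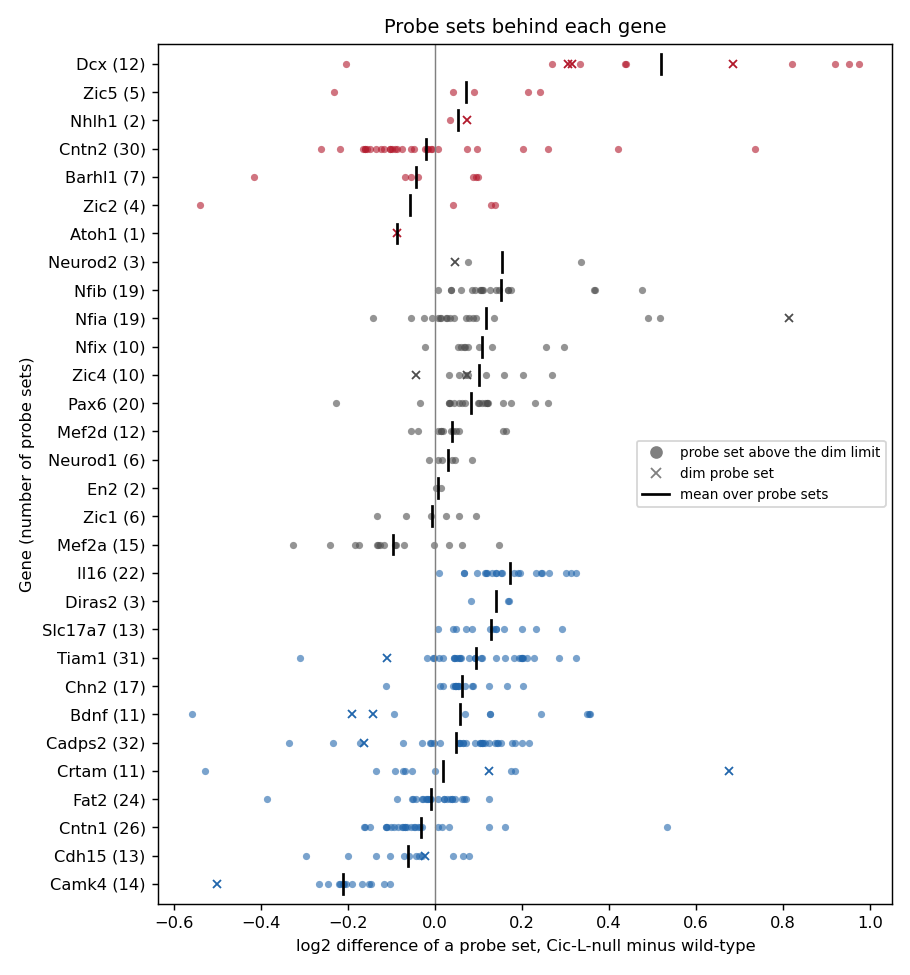
Log2 difference of every probe set of each measured granule cell gene, Cic-L-null minus wild-type, with crosses for probe sets below the dim limit of 6.21 and a bar at the gene's mean. All 14 probe sets of Camk4 lie below 0 and all 22 of Il16 above it, whereas those of Crtam spread from -0.53 to 0.68.

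Set side by side, the median difference was -0.020 for precursor and migration genes, 0.084 for the lineage transcription factors and 0.054 for mature genes, beside -0.0071 over all genes. The per-array medians overlapped between the groups for all 3 kinds. For precursor and migration genes they lay from -0.067 to 0.026 in wild-type and from -0.081 to 0.075 in Cic-L-null, and for mature genes from -0.032 to 0.073 and from -0.011 to 0.093. The sign of the precursor median was not settled, since it came to 0.0845 where gene values were medians over probe sets, 0.016 with array weights and 0.028 without wild-type replicate 1. Dcx thus stood outside the range of its own group, whose other 6 members lay between -0.087 and 0.072.

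Genes on other lists of the granule cell pathway were read from the same fit. Of 13 further granule cell genes, 8 had differences above 0, with a median of 0.089, and none passed. Reln, the secreted glycoprotein that granule cells supply, differed by 0.32 (SE 0.064, adjusted p = 0.0964 in limma, 0.00918 with a trended and robust variance) without overlap, and Grm4, the presynaptic glutamate receptor of parallel fibres, by 0.21 (SE 0.074), also without overlap. The potassium channel gene Kcnd2 differed by -0.15 (SE 0.059). Gabra6, the receptor subunit that marks mature granule cells, differed by -0.036 (SE 0.062) and Cbln3 by 0.11 (SE 0.059), both chosen after their values were seen.

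Of 15 genes of Sonic hedgehog signalling and precursor division, 10 had differences above 0 with a median of 0.043, and 1 passed. This was Top2a, a topoisomerase of dividing cells, which fell by 0.56 (SE 0.067, adjusted p = 0.018 in limma). Its wild-type mean of 5.76 was below the dim limit, and it did not pass with the median of its probe sets or with only those above the dim limit (adjusted p of 0.127 and 0.175). Leaving out 1 array took the call away for 6 of the 8 arrays, with an adjusted p between 0.0522 and 0.0759 for those 6. Mki67, the proliferation marker, was also dim and differed by -0.23 (SE 0.067), and Ccnd1, the cyclin through which Sonic hedgehog drives precursor division, by 0.25 (SE 0.091), both without passing. With only probe sets above the dim limit Mki67 differed by 0.0026, so its direction was not kept.

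On the neuronal migration list 14 of 16 differences were above 0, with a median of 0.12 and no gene past the threshold. Groups did not overlap for 4 of the 16, all with the mutants above, where 3.02% of all genes had that pattern. Sema6a, the semaphorin that releases granule cells for migration, had values of 9.27, 9.08, 9.06 and 8.99 in wild-type and 9.41, 9.46, 9.46 and 9.59 in Cic-L-null, with a difference of 0.38 (SE 0.072, adjusted p = 0.0861 in limma). It passed among genes above the dim limit (adjusted p = 0.0476), with a trended and robust variance (0.0187), with array weights (0.0316) and without wild-type replicate 1 (0.0419). Its receptor gene Plxna2 differed by 0.29 (SE 0.062, adjusted p = 0.131, and 0.0299 with a trended and robust variance) and Plxnb2, another plexin of precursors, by 0.18 (SE 0.056, adjusted p = 0.30). Dclk1, a relative of Dcx chosen after its value was seen, differed by 0.18 (SE 0.066), with groups that overlapped. Many of these genes are also expressed by other neurons and glia.

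**Figure D4:**
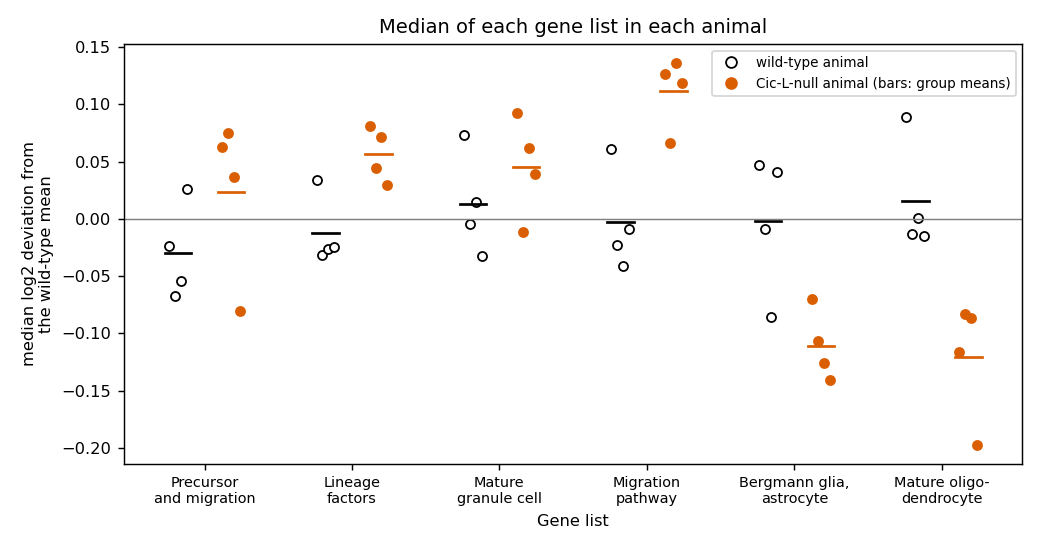
Median log2 deviation from the wild-type mean over the genes of each list, for each of 4 wild-type (open) and 4 Cic-L-null (filled) animals, with bars at the group means. The 3 granule cell kinds overlap between the groups, the migration list lies between 0.066 and 0.14 in the mutants, and the oligodendrocyte list lies between -0.20 and -0.083 in them.

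Markers of other cell types were read beside these values, and none of them passed the threshold. All 8 Bergmann glia and astrocyte markers had differences below 0 (median -0.13), as did all 7 of oligodendrocytes (median -0.11) and 5 of 6 endothelial markers (median -0.17). With a trended and robust variance Gdf10, of Bergmann glia (adjusted p = 0.0269), Mobp and Cldn11, of oligodendrocytes (0.014 and 0.0461), and Itm2a, on the endothelial list (0.0375), passed in limma. In that setting 130 of all 20352 genes passed, against 28 in the main fit. The summed linear values of the oligodendrocyte markers lay between 10555.3 and 11194.5 in wild-type and between 9365.2 and 10091 in Cic-L-null, and those of the Bergmann glia and astrocyte markers between 10891.9 and 12191.6 and between 10641.1 and 11184.7. Those of the 30 granule cell genes lay between 42134.4 and 44492.6 in wild-type and between 43580.2 and 44443.1 in Cic-L-null. Purkinje cell markers had a median of 0.029 over 7 genes and interneuron markers of 0.020 over 8. Microglia markers divided into 3 above and 3 below 0, with a median of -0.0007. Array values are relative within an array, and the part of the glial markers in the lean of the granule cell genes was not tested.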

How the data were processed

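The deposited table holds log2 expression values for 241576 probe sets, which the submitters' processing notes credit to RMA and to Affymetrix Power Tools. The sources used here give no version of either, and no library file or build. Gene names came from the platform annotation, brought to the symbols of GRCm38.p6. The gene value was the mean over probe sets with that symbol alone. Promoter sequences are from RefSeq on GRCm38.p6, which had windows for 27 of 32 members.

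Groups and replicate numbers came from the sample titles. All 20352 genes were fitted with limma 3.58.1 in R 4.3.3 (lmFit, eBayes without trend, group as the only term, no filter), with Benjamini-Hochberg adjustment and a threshold of 0.05, after tests on simulated data. The labels do not say whether animals shared litters, and p-values measure the spread between these arrays. Members and lists were chosen with earlier results of these data known. All members were named, with up to 3 genes of smallest p from each other list that the text describes by gene, and others are marked as chosen later. Alternatives covered probe set summary, dim limits, scaling, variance, weights, blocking and arrays left out.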

Additional observations from a re-analysis of the deposited data

Results flagged for a closer look

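In groups of 4, the array farthest from the others stood apart by Dixon's criterion in 3 of 62 groups examined, where chance gives about 1 in 20. Nfia in wild-type replicate 1 was 9.88, and the other wild-type arrays lay between 9.69 and 9.72. Nfib in the same array was 10.98, against 10.82 to 10.84. Camk4 in wild-type replicate 4 was 11.18, against 11.27 to 11.29 in the others. This last array was the wild-type array nearest to the mutants, and without it the Camk4 difference was -0.24 (SE 0.064).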

How the results depend on the processing

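The number of members called, 0 in the main setting, was 1 with probe sets above the dim limit, with genes above it and with array weights (Dcx each time), 2 with a trended and robust variance (Dcx and Camk4), and between 0 and 1 without 1 array. Genes called among all genes, 28 in the main setting, numbered 2 with the median of the probe sets, 69 among genes above the dim limit, 130 with a trended and robust variance, 54 with array weights, 18 with the Y-linked covariate and between 0 and 37 without 1 array. With the replicate block 0 genes were called. Same-numbered arrays correlated at 0.219, 0, 0.207 and 0.026 in their deviations, and differently numbered ones from -0.227 to 0.125. So few values cannot decide whether the numbers pair the animals. The block left Cic at -1.25 (adjusted p = 0.0564 in limma), past the threshold no longer. Top2a (adjusted p = 0.0573) also lost its call there. Without 1 array Cic lay between -1.32 and -1.11 and lost its call without Cic-L-null replicate 2 (adjusted p = 0.0589).

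Where gene values were medians over probe sets, the precursor median was 0.0845 and the lineage factor median 0.039, and the sign turned for Barhl1 (0.16), Zic2 (0.0845), Zic1 (0.023), Nfia (-0.038), Cdh15 (0.069) and Crtam (-0.26). Crtam was -0.065, Mki67 0.0026 and Aif1 0.14 with only probe sets above the dim limit. Under quantile normalisation Zic1 was 0.011 and Fat2 0.0097, with array weights Cntn2 was 0.016 and Fat2 0.036, and with the Y-linked covariate Fat2 was 0.0035. Without 1 array the range included 0 for Nhlh1 (-0.0404 to 0.16), Zic2 (-0.13 to 0.026), Cntn2 (-0.059 to 0.028), Zic1 (-0.021 to 0.012), En2 (-0.025 to 0.041), Fat2 (-0.057 to 0.028), Crtam (-0.044 to 0.068), Bdnf (-0.0016 to 0.12) and Aif1 (-0.16 to 0.011). In all, 30 of 507 member values changed sign, in 11 members, and 19 members kept theirs. The cause was not tested. The median standard error of a member difference was 0.067, which limits what 8 arrays can show for smaller differences.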
